A study of Mus musculus with 6 samples.

Results

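The 10 genes described here are known to be switched on by oxygen shortage and do not encode enzymes of glycolysis. They are Bnip3, Bnip3l, Adm, Vegfa, P4ha1, P4ha2, Ero1l, Car9, Ndrg1 and Ankrd37. They were chosen by symbol, as the 10 rows of the count tables with these names among 24391 genes in all. The choice was made with earlier results of these data known. Their RNA was measured by sequencing in mouse melanoma cells labelled KMT2D KO (3 libraries) and KMT2D WT (3 libraries), and the comparison asks how far this arm of the hypoxia response differed between them. Kmt2d encodes an enzyme that methylates lysine 4 of histone H3, chiefly at enhancers. All tumours arose on the ears of iBIP mice, which carry Tyr-CreERT2 (a tamoxifen-activated Cre driven by the tyrosinase promoter of pigment cells), Rosa26-rtta, TetO-BRAFV600E (a mutant BRAF switched on by doxycycline), PTENL/L and INK/ARFL/L (floxed tumour suppressor genes). KMT2D KO cells were from mice that were also KMT2DL/L, and KMT2D WT cells from KMT2D+/+ mice, and both kinds of mice received doxycycline and 1 uM 4-OHT, the active form of tamoxifen, on the ears. The background of the mice was mixed, FVB and B6, and the cells were kept in high-glucose DMEM. No oxygen level is given in the labels.

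In normal oxygen, prolyl hydroxylases mark the alpha subunits of the hypoxia-inducible factors (HIF) for destruction through VHL. When oxygen falls, the alpha subunits pair with ARNT and bind the core sequence ACGTG or GCGTG near target genes. One branch of those targets feeds glycolysis, while the genes described here remove mitochondria, call in blood vessels, build collagen, fold secreted proteins and control acidity outside the cell. Melanocytes normally live in mildly hypoxic skin, and HIF activity is known to promote melanoma growth and spread.

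The promoters of the genes that moved most in each direction are shown to let a reader see where that core sequence lies beside the start of transcription. Promoter windows from RefSeq (GRCm38.p6, 250 bases before to 50 bases after a start, on the strand of the gene) were at hand for 8 of the 10 genes, with 2 windows for Vegfa, and not for Bnip3l and Ndrg1. Capitals mark ACGTG or GCGTG on either strand, so that CACGT and CACGC are capitals too, and matches that overlap were joined into 1 stretch. The windows are Bnip3 (chr7:138909457-138909756, minus strand), Ankrd37 (chr8:45999801-46000100, minus), P4ha2 (chr11:54100674-54100973, plus), Ero1l, named Ero1a in RefSeq (chr14:45318523-45318822, minus), and the outer start of Vegfa (chr17:46032328-46032627, minus).
Bnip3: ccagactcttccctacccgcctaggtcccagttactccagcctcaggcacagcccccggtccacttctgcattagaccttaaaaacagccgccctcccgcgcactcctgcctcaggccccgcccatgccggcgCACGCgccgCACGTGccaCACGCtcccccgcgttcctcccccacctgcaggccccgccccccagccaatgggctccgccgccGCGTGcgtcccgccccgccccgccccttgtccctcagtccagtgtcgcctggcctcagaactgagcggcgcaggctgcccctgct
Ankrd37: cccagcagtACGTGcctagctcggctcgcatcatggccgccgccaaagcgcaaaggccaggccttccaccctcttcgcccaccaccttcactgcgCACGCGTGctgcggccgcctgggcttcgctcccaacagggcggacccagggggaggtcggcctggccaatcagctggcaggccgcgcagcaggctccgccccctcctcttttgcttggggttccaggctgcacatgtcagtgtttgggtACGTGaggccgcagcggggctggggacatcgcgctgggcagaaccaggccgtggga
P4ha2: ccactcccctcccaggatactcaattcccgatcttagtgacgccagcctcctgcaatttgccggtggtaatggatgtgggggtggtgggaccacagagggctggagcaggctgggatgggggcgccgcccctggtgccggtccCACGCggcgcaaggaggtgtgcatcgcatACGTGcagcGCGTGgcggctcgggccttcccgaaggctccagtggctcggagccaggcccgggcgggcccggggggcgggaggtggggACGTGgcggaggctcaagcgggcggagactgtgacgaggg
Ero1l: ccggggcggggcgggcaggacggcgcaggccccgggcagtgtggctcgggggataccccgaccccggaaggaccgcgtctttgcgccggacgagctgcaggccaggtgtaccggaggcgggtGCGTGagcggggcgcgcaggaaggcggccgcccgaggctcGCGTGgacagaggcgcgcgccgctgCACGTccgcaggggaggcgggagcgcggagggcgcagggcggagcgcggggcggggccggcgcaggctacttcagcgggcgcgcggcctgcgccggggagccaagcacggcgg
Vegfa: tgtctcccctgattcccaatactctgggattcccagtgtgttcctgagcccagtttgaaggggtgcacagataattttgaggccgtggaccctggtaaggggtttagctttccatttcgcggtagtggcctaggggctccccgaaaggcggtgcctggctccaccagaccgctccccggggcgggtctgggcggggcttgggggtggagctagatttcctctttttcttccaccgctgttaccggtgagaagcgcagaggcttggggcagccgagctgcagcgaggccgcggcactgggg

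All 8 genes had at least 1 match in a window, and 7 of the 8 had one to ACGTG alone. Bnip3 and P4ha2 held 4 stretches each, and Ankrd37, P4ha1 and Ero1l held 3 each. The first stretches of Bnip3 began 117 and 108 bases before the start, and the second of these, CACGTG, reads ACGTG on both strands and is also the E-box bound by other helix-loop-helix factors. In Ankrd37 the match nearest to the start began 6 bases before it. Adm held 2 stretches, Car9 held 1 that began 18 bases before the start, and the outer Vegfa window held none while the inner one, inside the gene, held 2. Of the 9 windows of these genes, 8 held at least 1 match to either core and 5 held 3 or more stretches, against 43.8% and 6.43% of all 32841 RefSeq windows of this length. For ACGTG alone the count was 7 of the 9 windows, against 19.6% of all. The 9 windows were rich in G and C, with a median of 69% against 52.7% over all windows, and the part of base composition in these matches was not tested. A match of 5 bases is a description of the sequence and does not show that a factor binds there. Rising and falling genes both held matches, since Ero1l, which fell, had 3 stretches.

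The libraries held between 55594979 and 79718782 counted fragments in KMT2D KO and between 43168605 and 59360068 in KMT2D WT, which limits precision only for Ankrd37 and Car9 among the genes described. Kmt2d itself gave 73.0, 69.3 and 79.8 CPM in KMT2D KO, against 79.7, 87.6 and 101 CPM in KMT2D WT, where CPM is the count divided by the library size and multiplied by 1000000, with library sizes scaled by the TMM method. The log2 fold change was -0.27 (edgeR adjusted p = 0.0075), the groups overlapped, and the call was lost without KMT2D KO replicate 2 (-0.21, adjusted p = 0.058). Where only some exons are deleted the gene total can stay up, so it is no check of the deletion. Whether libraries of a group were separate cultures, tumours or mice is not stated in the labels, so each p-value measures only the spread between these libraries, and the Kmt2d genotype cannot be told apart from the tumour a group came from. Of 7 melanocyte markers, 5 were under 1 CPM in both groups, among them Tyr, Tyrp1 and Dct, and the 7 summed to between 50.3 and 59.0 CPM in KMT2D KO and between 15.9 and 17.3 CPM in KMT2D WT, nearly all of it Mitf. The labels' extraction protocol names cerebellar tissue, but 6 of 7 cerebellar neuron markers were under 1 CPM in both groups. The seventh, Cbln3, was higher in KMT2D KO, at 2.35 CPM against 0.279 CPM in KMT2D WT (log2 fold change 3.05). Rbfox3, the only other marker of this list that was tested, was lower, at 0.0250 CPM in KMT2D KO against 0.407 CPM in KMT2D WT (-3.86).

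Of the 10 genes, 7 rose in KMT2D KO, 2 fell and 1 did not pass the test, so that 9 were called in either direction, against 71.0% of all tested genes. The rises ran from P4ha1 (log2 fold change 0.55) to Bnip3 (2.51), and the falls were those of Vegfa (-0.62) and Ero1l (-0.99). A gene was called at an adjusted p under 0.05 in edgeR's quasi-likelihood test, fitted over all 14579 genes that passed the low-count filter, and all 10 genes passed that filter. Differences were common in this comparison, since 35.4% of all tested genes were called higher and 35.5% lower in KMT2D KO. Of the 10, 5 were called higher with a log2 fold change above 1, against 13.9% of all tested genes, and none was called lower with one below -1, against 12.9%. Libraries of the groups did not overlap for 9 of the 10, a share to be read against 74.3% of all tested genes. The median log2 fold change of the 10 genes was 0.91, and that of all tested genes 0.00. The 10 genes were chosen with earlier results of these data known. These counts and medians therefore describe them and are no independent evidence of a rise. Summed over the 10 genes, the level was 2350, 2328 and 2288 CPM in KMT2D KO, against 1675, 1632 and 1621 CPM in KMT2D WT, and Adm made up 24.7% to 25.3% of the sum in KMT2D KO and 14.9% to 15.2% in KMT2D WT. In bulk RNA, a change in the share of cells that express a gene and a change in RNA per cell cannot be told apart.

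**Figure D1:**
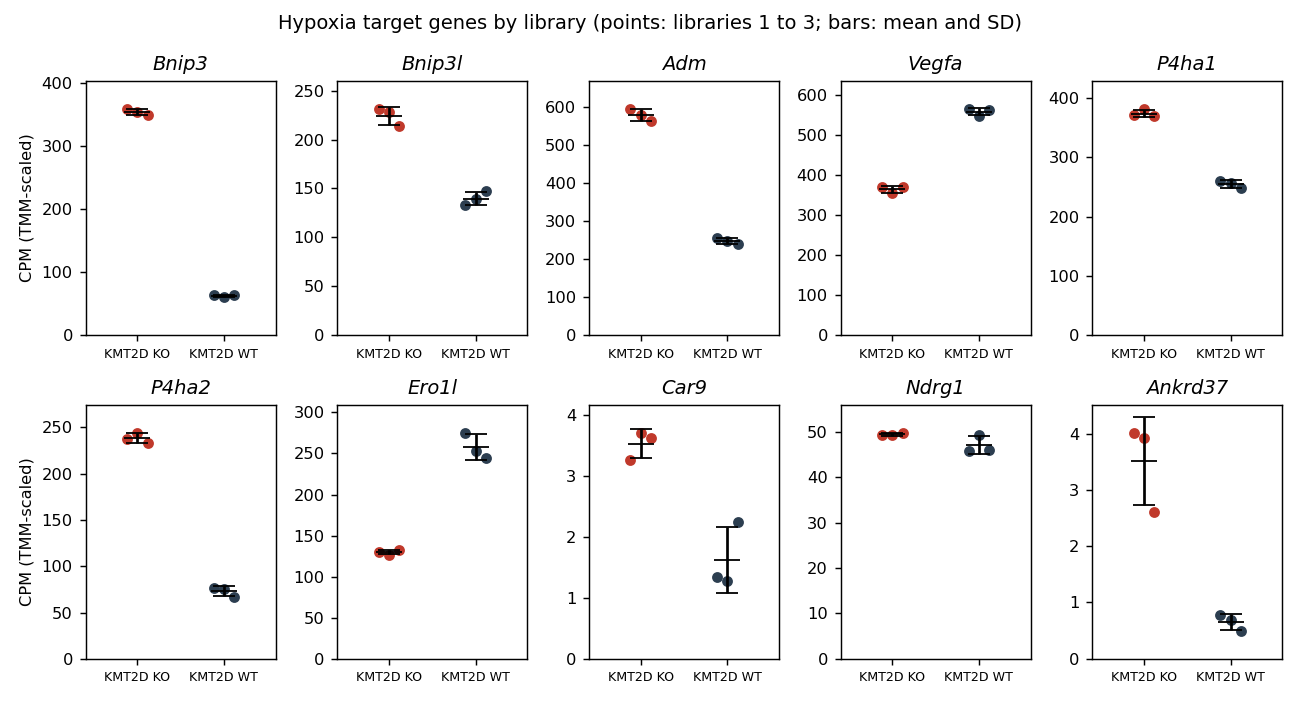
CPM of each of the 10 genes in every library, with KMT2D KO in red and KMT2D WT in dark blue, points for libraries 1 to 3 and bars for the mean and SD, on axes that start at 0. The groups stand apart in every panel except that of Ndrg1, where the KMT2D KO libraries sit at 49.3 to 49.8 CPM and the highest KMT2D WT library at 49.4 CPM.

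The mitophagy receptors Bnip3 and Bnip3l both rose in KMT2D KO, Bnip3 by far the more. Their products sit in the outer mitochondrial membrane and tie mitochondria to LC3 proteins on the growing autophagosome. Bnip3 (mm9 chromosome 7, 146082519 to 146101189, 6 exons on the minus strand) gave 359, 355 and 350 CPM in KMT2D KO, against 63.3, 60.0 and 63.5 CPM in KMT2D WT. Every KMT2D KO library was thus far above every KMT2D WT library, and the spread within a group was small. The means were 355 ± 4.42 CPM in KMT2D KO and 62.3 ± 1.96 CPM in KMT2D WT (SD, n = 3 each). They differed by 2.51 on the log2 scale (SE 0.05, edgeR adjusted p = 6.6e-15), a 5.70-fold rise that exceeded the log2 fold change of 95.6% of all tested genes.

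Bnip3l, also known as Nix (chromosome 14, 67604077 to 67627714, on the minus strand), gave 231, 228 and 214 CPM in KMT2D KO, against 133, 139 and 147 CPM in KMT2D WT. The groups did not overlap, and the log2 fold change was 0.69 (SE 0.06, edgeR adjusted p = 4.1e-08), a 1.61-fold rise. Relative to exon length, the ratio of Bnip3 to Bnip3l was 2.92 in KMT2D KO and 0.825 in KMT2D WT, so Bnip3l was the more abundant of the pair in KMT2D WT and Bnip3 in KMT2D KO. The log2 ratio of 1.54 ± 0.04 in KMT2D KO stood against -0.28 ± 0.08 in KMT2D WT (SD, n = 3 each), a difference of 1.82. An exact two-sided permutation test over the 6 libraries gave p = 0.10, also after adjustment over the 2 pairs of paralogs compared, which is the smallest p that 3 against 3 libraries allow.

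Of 14 other mitophagy and LC3-family genes, all of them tested, 8 rose and 4 fell while 2 did not pass. Over all tested genes, 35.4% were called higher and 35.5% lower. The median log2 fold change of the 14 was 0.38. Park2, which encodes the ubiquitin ligase Parkin, was scarce and rose (2.16 ± 0.125 CPM in KMT2D KO and 0.649 ± 0.164 CPM in KMT2D WT, log2 fold change 1.74). Map1lc3a, an LC3 gene, rose as well (45.8 ± 2.07 CPM in KMT2D KO and 17.7 ± 2.82 CPM in KMT2D WT, 1.37). Fundc1, the other hypoxia-linked receptor of mitophagy in the outer membrane, fell (16.0 ± 2.19 CPM in KMT2D KO and 25.4 ± 1.25 CPM in KMT2D WT, -0.67), and so did the LC3 relative Gabarapl2 (-0.38). Chosen after its values were seen, Pink1, the kinase that starts the Parkin route, rose by 0.76.

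The secreted signals to blood vessels moved in opposite directions. Adm encodes adrenomedullin, a peptide that widens vessels and acts on endothelial cells, and Vegfa encodes the main growth factor of endothelial cells. Adm (chromosome 7, 117771183 to 117773333, plus strand) gave 595, 581 and 565 CPM in KMT2D KO, against 255, 248 and 241 CPM in KMT2D WT. All KMT2D KO libraries were well above the KMT2D WT libraries, and Adm rose 2.34-fold, by 1.23 on the log2 scale (SE 0.05, edgeR adjusted p = 1.2e-11). Vegfa (chromosome 17, 46153943 to 46169326, on the minus strand) gave 369, 354 and 369 CPM in KMT2D KO, against 564, 548 and 562 CPM in KMT2D WT. Every KMT2D KO library lay below every KMT2D WT library, and the log2 fold change was -0.62 (SE 0.05, edgeR adjusted p = 2.3e-08), so Vegfa fell to 0.652 times its KMT2D WT level. Of 7 macrophage and leukocyte markers, 6 were tested, and 5 were called lower in KMT2D KO and 0 higher. Over all tested genes, 35.4% were called higher and 35.5% lower. The 7 markers summed to between 8.82 and 10.3 CPM in KMT2D KO and between 27.4 and 32.0 CPM in KMT2D WT. None of the 7 was at 0 in all libraries, and their part in the fall of Vegfa was not tested. The files hold gene totals, and splice forms of Vegfa were not analysed here.

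Among 15 other ligands and receptors of the VEGF and adrenomedullin systems, 14 were tested. Of these, 8 rose and 5 fell while 1 did not pass, against 35.4% of all tested genes called higher and 35.5% lower. The median log2 fold change of the 14 was 0.72. Pgf, the placental growth factor and a Vegfa relative, rose but stayed scarce (6.68 ± 0.403 CPM in KMT2D KO and 1.11 ± 0.213 CPM in KMT2D WT, 2.57). The receptor genes Flt1 and Flt4 fell, with Flt1 at 0.864 ± 0.248 CPM in KMT2D KO and 17.9 ± 1.15 CPM in KMT2D WT (-4.34) and Flt4 at 0.518 ± 0.0964 CPM in KMT2D KO and 5.25 ± 0.588 CPM in KMT2D WT (-3.32). The gene not tested was the VEGF receptor gene Kdr, at 0.0293 ± 0.0258 CPM in KMT2D KO and 0.132 ± 0.0888 CPM in KMT2D WT. Chosen after their values were seen, Vegfb (1.29) and Figf (0.98) rose and the co-receptor gene Nrp2 (-0.42) fell. Vegfc, chosen in the same way, fell to 13.6 ± 1.21 CPM in KMT2D KO, against 27.2 ± 1.60 CPM in KMT2D WT, so the VEGF ligand genes moved both ways. Calcrl, the receptor on which adrenomedullin acts, rose (38.9 ± 1.80 CPM in KMT2D KO and 8.92 ± 0.883 CPM in KMT2D WT, 2.12). Of its partner genes, also chosen after their values were seen, Ramp3 fell (9.35 ± 0.318 CPM in KMT2D KO and 91.6 ± 11.3 CPM in KMT2D WT, -3.29). Ramp1 (0.499 ± 0.0744 CPM in KMT2D KO and 0.0960 ± 0.115 CPM in KMT2D WT, 2.47) and Ramp2 (0.822 ± 0.184 CPM in KMT2D KO and 0.271 ± 0.0834 CPM in KMT2D WT, 1.58) rose at very low levels. The call of Ramp1 was lost without KMT2D WT replicate 2 (edgeR adjusted p = 0.056) and that of Ramp2 without KMT2D KO replicate 1 (0.059). All 7 markers of endothelial cells, where these receptors mostly act, were under 1 CPM in both groups and summed to between 0.432 and 0.626 CPM in KMT2D KO and between 1.12 and 1.40 CPM in KMT2D WT.

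**Figure D2:**
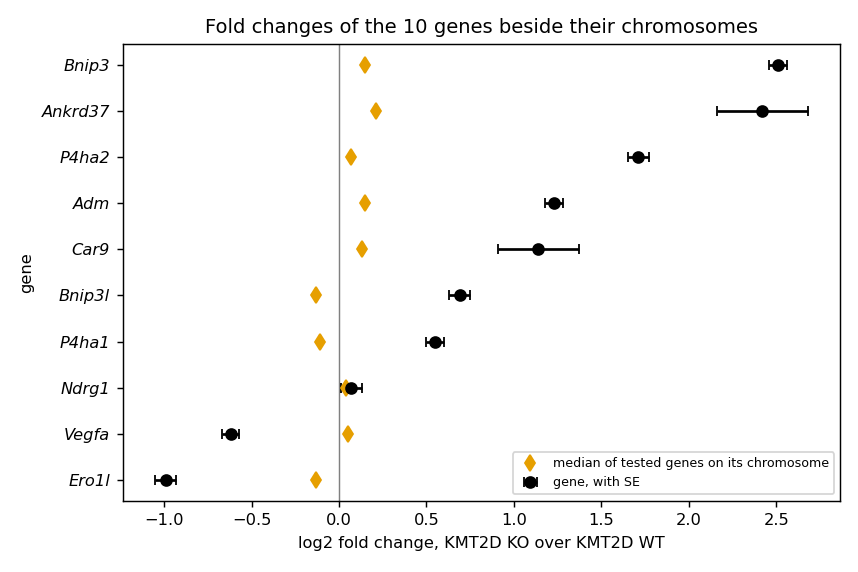
Log2 fold changes of the 10 genes, KMT2D KO over KMT2D WT, as black points with their SE, beside the median of all tested genes on the same chromosome as orange diamonds. Bnip3 (2.51) and Ankrd37 (2.42) lie farthest to the right and Ero1l (-0.99) farthest to the left, while the chromosome medians lie between -0.13 and 0.21.

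The collagen prolyl hydroxylase genes P4ha1 and P4ha2 both rose, P4ha2 the more. They encode alternative catalytic alpha subunits of the enzyme that makes hydroxyproline, which collagen needs for a stable triple helix. P4ha1 (chromosome 10, 58786044 to 58836052, plus strand) gave 371, 381 and 369 CPM in KMT2D KO, against 260, 257 and 248 CPM in KMT2D WT. The groups were well apart, and the fold change on the log2 scale was 0.55 (SE 0.05, edgeR adjusted p = 9.6e-08). P4ha2 (chromosome 11, 53914426 to 53945169, plus strand) gave 238, 244 and 233 CPM in KMT2D KO, against 76.9, 75.6 and 66.6 CPM in KMT2D WT. Again no library overlapped with the other group, and the log2 fold change was 1.71 (SE 0.06, edgeR adjusted p = 3.0e-12), a 3.26-fold rise against a 1.47-fold rise of P4ha1.

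Per kb of exon, P4ha1 was 0.909 times as abundant as P4ha2 in KMT2D KO and 2.03 times as abundant in KMT2D WT. The log2 ratio of P4ha1 to P4ha2 was -0.14 ± 0.01 in KMT2D KO and 1.02 ± 0.08 in KMT2D WT (SD, n = 3 each), a difference of -1.16 (exact two-sided permutation test, p = 0.10, the smallest that 6 libraries allow). The third alpha subunit gene, P4ha3, and the beta subunit gene P4hb, both chosen after their values were seen, rose by 0.37 and 0.51. P4hb was the most abundant gene of this enzyme, at 1718 ± 18.8 CPM in KMT2D KO and 1204 ± 42.7 CPM in KMT2D WT.

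Ero1l, the oxidase of the endoplasmic reticulum that renews protein disulfide isomerase for the next round of disulfide formation, fell. Ero1l (chromosome 14, 45902762 to 45938247, minus strand, 16 exons) gave 130, 127 and 132 CPM in KMT2D KO, against 275, 253 and 245 CPM in KMT2D WT. The KMT2D KO libraries were all far below those of KMT2D WT, and the fold change on the log2 scale was -0.99 (SE 0.06, edgeR adjusted p = 5.3e-10), or 0.502 times the KMT2D WT level. Its paralog Ero1lb was scarce in both groups, at 12.7 ± 0.695 CPM in KMT2D KO and 14.9 ± 1.38 CPM in KMT2D WT, and its libraries overlapped between groups. The call of Ero1lb (-0.23, edgeR adjusted p = 0.047) was lost with the replicate number as a block (adjusted p = 0.059), without the low-count filter (adjusted p = 0.11), under glmTreat, without KMT2D KO replicate 1 or 2 (adjusted p = 0.16 and 0.17) and without KMT2D WT replicate 1 or 2 (0.093 and 0.18).

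Collagen modification and oxidative folding genes other than these were mostly higher in KMT2D KO. Of 17, all tested, 13 rose and 3 fell while 1 did not pass, and the median log2 fold change was 0.42. Over all tested genes, 35.4% were called higher and 35.5% lower. The peroxidase gene Prdx4, which also feeds oxidation to disulfide isomerases, rose (77.8 ± 4.85 CPM in KMT2D KO and 25.0 ± 4.02 CPM in KMT2D WT, 1.64), as did P3h3, a prolyl 3-hydroxylase family gene (192 ± 2.22 CPM in KMT2D KO and 84.7 ± 11.2 CPM in KMT2D WT, 1.18). Gpx8, a peroxidase of the endoplasmic reticulum, fell (91.4 ± 4.52 CPM in KMT2D KO and 135 ± 6.63 CPM in KMT2D WT, -0.56). Chosen after its values were seen, Plod2, the hypoxia-responsive collagen lysyl hydroxylase, rose by 1.13.

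The 7 fibrillar collagen genes, whose products P4ha1 and P4ha2 modify, all rose, with a median log2 fold change of 1.74. Of all tested genes, 35.4% were called higher. Col11a1 had 197 ± 8.71 CPM in KMT2D KO and 5.95 ± 0.901 CPM in KMT2D WT (5.04), and Col3a1 had 7661 ± 230 CPM in KMT2D KO and 836 ± 60.1 CPM in KMT2D WT (3.20). Markers of fibroblasts moved both ways, with 5 of 7 higher and 2 lower in KMT2D KO. Of the 5, Col1a1 and Col3a1 are fibrillar collagens already counted above, and the others were Pdgfra (1208 CPM in KMT2D KO and 557 CPM in KMT2D WT, 1.12), Fap (1.20) and Dcn (0.22). The 2 that fell were Dpt, the largest change of the list (0.839 CPM in KMT2D KO and 44.8 CPM in KMT2D WT, -5.69), and Lum (-1.29). The 7 summed to between 11995 and 12698 CPM in KMT2D KO and between 2800 and 2863 CPM in KMT2D WT. That sum is mostly Col1a1 and Col3a1, and none of the 7 markers was at 0. The part of cells of this kind in the rise of P4ha1 and P4ha2 was not tested.

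Car9 rose but stayed scarce. It encodes carbonic anhydrase IX, an enzyme on the cell surface that acidifies the space around hypoxic tumour cells and is widely used as a hypoxia marker. Car9 (chromosome 4, 43519898 to 43526597, plus strand, 11 exons) had 250, 228 and 193 counts in KMT2D KO, against 79, 79 and 100 counts in KMT2D WT, which is 3.26, 3.71 and 3.63 CPM in KMT2D KO and 1.35, 1.28 and 2.24 CPM in KMT2D WT. The groups did not overlap, although KMT2D WT replicate 3 stood above the other KMT2D WT libraries. The log2 fold change was 1.14 (SE 0.23, edgeR adjusted p = 4.3e-04), and it was 1.43 without that library. Of the other carbonic anhydrase genes, Car11, an inactive member of the family, rose (23.6 ± 0.361 CPM in KMT2D KO and 3.87 ± 0.395 CPM in KMT2D WT, 2.61), and so did Car12, a further hypoxia-responsive surface enzyme chosen after its values were seen (4.72 ± 0.635 CPM in KMT2D KO and 1.69 ± 0.332 CPM in KMT2D WT, 1.49).

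Ndrg1, a stress-responsive gene that hypoxia, iron shortage and differentiation are known to induce, was the 1 gene of the 10 that did not pass the test. Ndrg1 (chromosome 15, 66760880 to 66801203, minus strand, 16 exons) gave 49.3, 49.3 and 49.8 CPM in KMT2D KO, against 45.9, 49.4 and 46.0 CPM in KMT2D WT. KMT2D WT replicate 2 lay within the range of KMT2D KO, and the log2 fold change was 0.07 (SE 0.06, edgeR adjusted p = 0.31), with a sign that turned to -0.04 when libraries were scaled by their size alone. A p that misses the threshold does not show equal levels. Among its relatives, Ndrg2 rose (31.6 ± 1.78 CPM in KMT2D KO and 6.51 ± 0.861 CPM in KMT2D WT, 2.27), and Ndrg4 (0.97) and Ndrg3 (0.68), chosen after their values were seen, rose as well. Over the other NDRG and carbonic anhydrase genes together, 10 of 13 could be tested. Of these, 7 rose and 0 fell while 3 did not pass, against 35.4% of all tested genes called higher and 35.5% lower. The median log2 fold change of these 10 was 0.92.

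Ankrd37, an ankyrin repeat gene known as a direct HIF-1 target, had the second largest rise of the 10. Ankrd37 (chromosome 8, 47082262 to 47085204, minus strand, 5 exons) had 308, 241 and 139 counts in KMT2D KO, against 45, 43 and 22 counts in KMT2D WT, which is 4.01, 3.92 and 2.61 CPM in KMT2D KO and 0.770, 0.694 and 0.492 CPM in KMT2D WT. Within each group replicate 3 was the lowest, yet the lowest KMT2D KO library was above every KMT2D WT library. The log2 fold change was 2.42 (SE 0.26, edgeR adjusted p = 9.6e-07), a 5.34-fold rise. Ankrd37 shares 49 of its 904 exon bases with Ufsp2, and fragments that overlap both genes are left out by default, so its counts are uncertain. No other gene of the 10 shared exon bases with another gene in the annotation used.

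**Figure D3:**
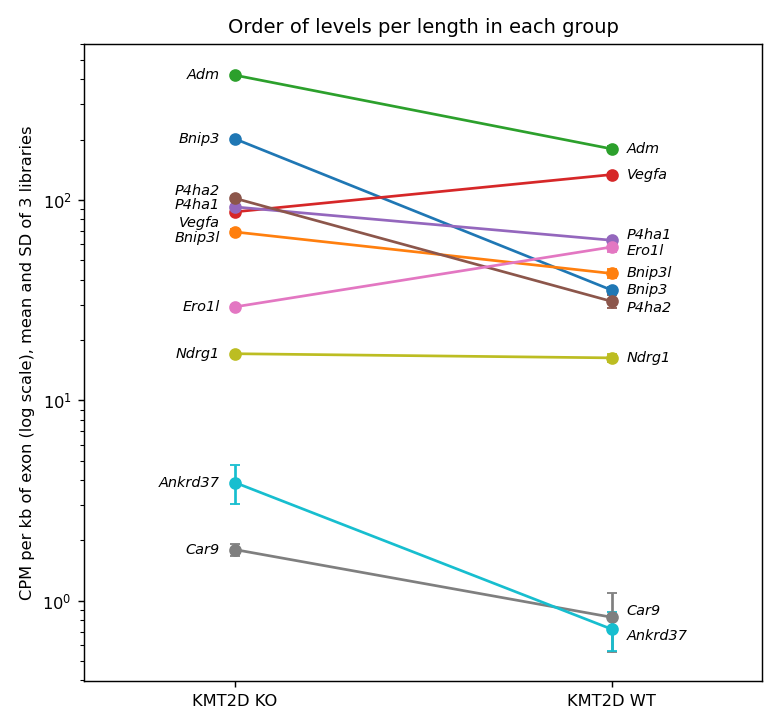
Level of each gene per kb of exon (CPM per kb, logarithmic axis), as the mean and SD of 3 libraries in KMT2D KO on the left and KMT2D WT on the right, with lines joining the same gene. Adm is the highest in both groups, the lines of Bnip3 and P4ha2 are among the steepest falling to the right, and those of Vegfa and Ero1l climb to the right.

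Set in order of level per kb of exon, the genes took a different order in the groups. In KMT2D KO the order was Adm (420 CPM per kb), Bnip3 (202), P4ha2 (102), P4ha1 (92.4), Vegfa (87.3), Bnip3l (69.3), Ero1l (29.3), Ndrg1 (17.1), Ankrd37 (3.89) and Car9 (1.80). No 2 neighbours in that order overlapped between their libraries. In KMT2D WT it was Adm (180 CPM per kb), Vegfa (134), P4ha1 (63.0), Ero1l (58.3), Bnip3l (43.0), Bnip3 (35.5), P4ha2 (31.2), Ndrg1 (16.3), Car9 (0.827) and Ankrd37 (0.721). There the libraries of P4ha1 and Ero1l overlapped, as did those of Car9 and Ankrd37. Bnip3 thus had rank 2 of the 10 in KMT2D KO and rank 6 in KMT2D WT, and Vegfa had rank 5 in KMT2D KO and rank 2 in KMT2D WT. Adm was above 99.0% of all tested genes in level per kb in KMT2D KO and above 97.9% in KMT2D WT, while Car9 was above 28.2% in KMT2D KO and 21.5% in KMT2D WT.

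Genes of the HIF subunits, their hydroxylases and VHL were mostly higher in KMT2D KO, although the hydroxylase genes among them moved both ways. Of 10, 9 were tested, of which 7 rose and 2 fell, with a median log2 fold change of 0.85. Of all tested genes, 35.4% were called higher and 35.5% lower. Hif1a, the main oxygen-regulated subunit, had 835 ± 19.1 CPM in KMT2D KO and 356 ± 15.0 CPM in KMT2D WT (1.23), and Epas1, which encodes HIF-2 alpha, had 55.8 ± 3.84 CPM in KMT2D KO and 26.4 ± 6.10 CPM in KMT2D WT (1.08). Hypoxia is known to act on these subunits chiefly by protein stability, which RNA counts do not show. On the side that removes HIF, Vhl (34.1 ± 1.85 CPM in KMT2D KO and 14.4 ± 1.19 CPM in KMT2D WT, 1.23) and the prolyl hydroxylase gene Egln1 (117 ± 3.40 CPM in KMT2D KO and 39.9 ± 3.76 CPM in KMT2D WT, 1.55) rose as well. Egln3, a prolyl hydroxylase gene that is itself a HIF target, fell (19.8 ± 1.36 CPM in KMT2D KO and 40.2 ± 3.96 CPM in KMT2D WT, -1.02), and Egln2 fell slightly (-0.19), a call lost without KMT2D KO replicate 1 (-0.17, edgeR adjusted p = 0.060).

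Other HIF target genes, also chosen with earlier results of these data known, are set beside the 10. Of all tested genes, 35.4% were called higher and 35.5% lower. Of 19 glycolytic targets, 17 rose and 1 fell while 1 did not pass, and the median log2 fold change was 1.35. Aldoc, an aldolase, had 17.8 ± 0.529 CPM in KMT2D KO and 0.451 ± 0.140 CPM in KMT2D WT (5.26), and Slc16a3, the lactate exporter MCT4, had 134 ± 1.90 CPM in KMT2D KO and 12.6 ± 1.06 CPM in KMT2D WT (3.40). Pfkfb4, a regulator of phosphofructokinase, was the gene that fell (-0.88). Of 30 further targets outside glycolysis, 29 were tested, of which 19 rose and 7 fell while 3 did not pass, and the median was 0.59. Bhlhe40, a transcriptional repressor gene, rose (138 ± 4.81 CPM in KMT2D KO and 31.8 ± 2.18 CPM in KMT2D WT, 2.11), and Stc1, which encodes the secreted hormone stanniocalcin, had a far larger fall than Vegfa or Ero1l (37.4 ± 2.22 CPM in KMT2D KO and 782 ± 74.0 CPM in KMT2D WT, -4.38). These lists were not compared by a test with the 10 genes or with each other. They share genes with the ligand, collagen modification and carbonic anhydrase lists above.

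**Figure D4:**
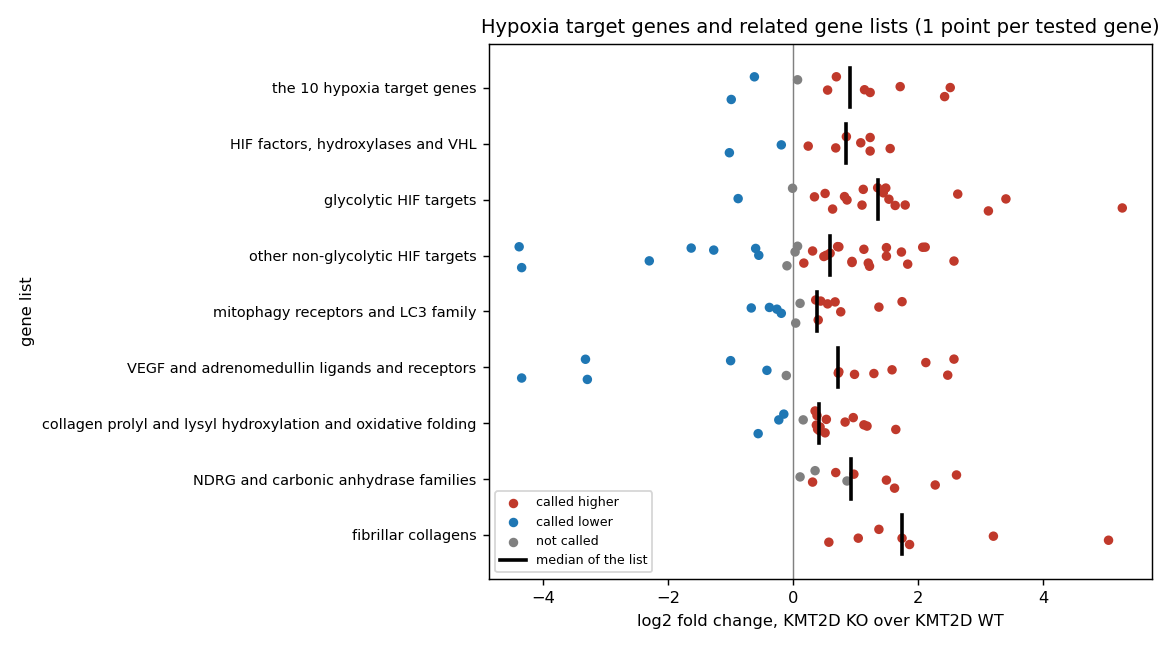
Log2 fold changes, KMT2D KO over KMT2D WT, of each tested gene in the 10 hypoxia target genes and 8 related lists, with red for genes called higher, blue for genes called lower, grey for those not called and a black bar for the median of the list. The medians run from 0.38 for mitophagy genes to 1.74 for fibrillar collagens, and the glycolytic targets (1.35) lie to the right of the 10 genes (0.91).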

How the data were processed

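RNA was sequenced in 3 KMT2D KO and 3 KMT2D WT libraries. The deposited values are raw fragment counts per gene. Per the file headers, the authors ran featureCounts 1.5.2 on exons with an mm9 annotation. The submitters' processing notes also list STAR and HTSeq. No strand option was set, so fragments of both strands were counted together.

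From these counts, edgeR 4.0.16 in R 4.3.3 gave TMM factors (0.957 to 0.967 in KMT2D KO, 1.037 to 1.044 in KMT2D WT), and its quasi-likelihood test was run with the default low-count filter and a group-only model. All adjusted p-values are Benjamini-Hochberg values over 14579 genes. The SE is the log2 fold change divided by the square root of F. Libraries correlated at 0.993 to 0.999 within a group and 0.909 to 0.914 between groups in log2 CPM.

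The 10 genes and 8 related lists, with 120 different genes, were chosen with earlier results of these data known. Up to 2 risers and 2 fallers per list, those with the largest fold change and at least 1 CPM in the higher group, were named, besides Kmt2d, Hif1a, Epas1 and Vhl. Of the list and marker genes, 6 were found under another symbol. Gene coordinates are mm9, counted from 1. Alternatives were RLE or unscaled library sizes, DESeq2 1.42.0, limma 3.58.1 voom, other filters, robust fitting, a replicate block, glmTreat and leaving out each library.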

Additional observations from a re-analysis of the deposited data

How the results depend on the processing

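Over 15 alternatives, the 10 genes gave 150 values, of which 144 kept both direction and side of the threshold. The calls of Bnip3l, Vegfa, Car9, P4ha1 and Ero1l were lost where glmTreat tested for an absolute log2 fold change above 1, and under no other alternative. Ndrg1 turned to -0.04 with library size alone, a setting that moved the median of all genes by -0.11, and it was called under no alternative. Deviations from the group means correlated at 0.01, 0.07 and 0.05 between libraries of the same replicate number, and at -0.08 to 0.04 between unlike numbers. All these values are near 0, but 3 libraries per group are too few to exclude a weak pairing. With the replicate block, 7 of the 10 genes were higher and 2 lower, the counts of the group-only model, and 10368 genes were called in all.

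Under glmTreat, 2823 genes were called in all, and 4 of the 10 genes were higher and 0 lower. The counts higher and lower were then 3 and 0 for HIF factors, hydroxylases and VHL, 10 and 0 for glycolytic targets, 10 and 4 for other targets, 2 and 0 for mitophagy genes, 3 and 3 for VEGF and adrenomedullin genes, and 3 and 0 for collagen modification and folding, while 3 NDRG and carbonic anhydrase genes were higher. These falls follow from the stricter null hypothesis. Without the low-count filter, 1 gene of collagen modification and folding was lower in place of 3, and the cause was not tested. Leaving out 1 library, that count ran from 1 to 3, and the count of HIF factors, hydroxylases and VHL that were lower from 1 to 2. Leaving out 1 library gave 9542 to 10798 called genes in all, and for the 10 genes always 7 higher and 2 lower. With ACGTG alone, 7 of 8 genes held a match in place of 8. Depth limits Ankrd37 and Car9, with at most 308 counts in a library.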

Other observations

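Further targets outside the named set, chosen after their values were seen, showed how far single genes of the response spread. Pdk1, the kinase that keeps pyruvate out of mitochondria, had 152 ± 3.80 CPM in KMT2D KO and 17.5 ± 0.735 CPM in KMT2D WT (log2 fold change 3.12). Kdm3a, an oxygen-dependent histone demethylase gene that hypoxia induces, had 111 ± 1.20 CPM in KMT2D KO and 47.5 ± 2.48 CPM in KMT2D WT (1.22). Gbe1, the glycogen branching enzyme, had 132 ± 1.38 CPM in KMT2D KO and 318 ± 11.2 CPM in KMT2D WT (-1.27), and Tfrc, the transferrin receptor that takes up iron, had 61.6 ± 1.33 CPM in KMT2D KO and 93.2 ± 5.05 CPM in KMT2D WT (-0.60). Each of these 4 genes passed the edgeR test, as did 71.0% of all tested genes. Their libraries did not overlap between groups, which held for 74.3% of all tested genes.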
